A study of Mus musculus with 6 samples.

Results

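After injury the colon epithelium can leave its adult program and switch on genes of the fetal gut, a state that is used to reseal and rebuild the damaged lining. The transcriptional co-activator YAP, which is held back by the Hippo kinases and acts through TEAD factors, is a known driver of this state, and annexins, clusterin and other secreted or surface proteins are among its markers. Tumors of the colon can use the same program. The genes described here are 9 such markers taken by name: the annexins *Anxa1*, *Anxa3*, *Anxa8* and *Anxa10*, the secreted and surface proteins *Clu*, *Msln* and *Sprr1a*, and *F3* and *Plaur*, which are cell surface receptors of coagulation and of plasminogen activation. They are 9 of the 52550 genes listed in each sample, and all 9 were found.

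Colon epithelium was compared between 3 *Zfp90*fl/fl samples and 3 *Zfp90*ΔIEC samples to ask how loss of the zinc finger protein ZFP90 in the epithelium changes gene expression in colitis-associated cancer. All samples came from male C57BL/6 mice, 6 to 8 weeks old per the labels, that received azoxymethane (AOM, a carcinogen) at 10 mg/kg and, from 5 days later, 3 cycles of dextran sulfate sodium (DSS, which injures the colon), each of 7 days at 2% and 14 days of plain water, until day 80. The study's methods give another DSS concentration and a single age. No untreated mice are part of these files, so every level is that of a colon after AOM-DSS. *Zfp90*ΔIEC mice lacked a floxed exon and the 3′ end of *Zfp90* in the cells where the Villin promoter drives Cre, that is the intestinal epithelium, and *Zfp90*fl/fl littermates carried the floxed alleles without deletion. The labels do not say whether tumor was kept apart from the rest of the epithelium. Mice were housed by genotype, and effects of cage cannot be told apart from those of genotype. The labels number the samples 1 to 3 in each genotype, and p-values measure the spread between these samples. For *Zfp90*ΔIEC samples 2 and 3 a genotype field names another gene number, and they were grouped by their titles.

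*Zfp90* itself had an FPKM, the number of fragments scaled to transcript length and to sequencing depth, of 0.630, 0.490 and 0.569 in *Zfp90*fl/fl samples and of 0.0846, 0.195 and 0.166 in *Zfp90*ΔIEC samples. The label colon epithelium was met by its markers: 8 of 8 had a mean above 1 FPKM, and their sum was 5936 to 6747 FPKM in *Zfp90*fl/fl and 5889 to 6453 FPKM in *Zfp90*ΔIEC samples. The summed leukocyte markers were 9.71 to 10.6 FPKM and 3.42 to 4.65 FPKM. All 10 leukocyte markers had the lower mean in *Zfp90*ΔIEC samples and 8 of them did not overlap, with the neutrophil genes *S100a8* and *S100a9* listed at 0 in every *Zfp90*ΔIEC sample. Most of these markers were low, with 3 above a mean of 1 FPKM. Of all genes with a value above 0 in any sample, 8.88% were lower without overlap. Fragments were not counted in the files, and the smallest steps between low values gave an estimate of 28.1 to 31 M per sample. In bulk RNA, fewer cells of a type and less RNA per cell cannot be told apart.

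Promoter sequence was looked up for the 9 genes because AP-1, the dimer of JUN and FOS proteins, and TEAD factors are the classical partners in genes of wound repair. RefSeq (GRCm38.p6) held a promoter window of 250 bases before to 50 bases after the start site for *Anxa1*, *Anxa8*, *Anxa10*, *Sprr1a*, *F3* and *Plaur*. The AP-1 motif TGANTCA, which reads the same on both strands, was found in 4 of these 6 windows and in 7.81% of all 32851 windows. The TEAD core GGAATG, searched on both strands, was found in 1 of the 6 and in 14.7% of all windows. No motif overlapped another. Each line below shows the stretch around the matches on the strand of the gene, with the match in capitals.
*Sprr1a*, chr3:92485961-92486057, minus strand, matches starting 146 and 116 bases before the start site: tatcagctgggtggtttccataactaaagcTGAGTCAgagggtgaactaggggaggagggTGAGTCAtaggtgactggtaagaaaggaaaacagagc
*F3*, chr3:121723361-121723438, plus strand, matches starting 146 and 135 bases before: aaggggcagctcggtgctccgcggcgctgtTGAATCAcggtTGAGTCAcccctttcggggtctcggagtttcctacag
*Plaur*, chr7:24462384-24462450, plus strand, a match starting 69 bases before: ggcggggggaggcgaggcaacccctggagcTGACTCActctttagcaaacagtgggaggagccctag
*Anxa10*, chr8:62123337-62123403, minus strand, a match starting 180 bases before: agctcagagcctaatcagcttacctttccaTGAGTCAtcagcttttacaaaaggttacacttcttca
*Anxa10*, chr8:62123194-62123239, minus strand, a match starting 16 bases before: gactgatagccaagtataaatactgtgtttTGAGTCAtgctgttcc
*Anxa1*, chr19:20390890-20390919, minus strand, the TEAD core read on the other strand, starting 236 bases before: actgcactgaacCATTCCtgtgaggaataa

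*Sprr1a* and *F3* each held a pair of AP-1 matches within a short distance, *Plaur* held a single one, and *Anxa10*, which was listed at 0 in every sample, held a pair far apart. A match of letters is a description and was not tested for binding. The RefSeq start site of *Anxa1* lies inside the span that the gene annotation used for the coordinates below gives this gene, so the stretch shown for *Anxa1* is within that span. *Anxa8* had neither motif in its window.

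Levels of the 9 genes spanned a wide range. *Anxa1* was the most abundant, with a mean of 79.8 FPKM over the 6 samples, higher than 95.6% of the 11564 genes tested. *Anxa3* at 26.3 FPKM, *F3* at 18.7 FPKM, *Sprr1a* at 12.6 FPKM, *Anxa8* at 11.6 FPKM and *Plaur* at 6.88 FPKM lay in the middle and upper part of that range. *Clu*, a marker of the revival stem cells of the injured gut, was near its lower end with 1.30 FPKM, above 6.03% of the genes tested. *Msln* had 0.115 FPKM and *Anxa10* was listed at 0. Thus 7 of the 9 genes passed the filter of at least 1 FPKM in at least 3 samples, and *Clu* did so through all 3 *Zfp90*fl/fl samples and 1 *Zfp90*ΔIEC sample.

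**Figure D1:**
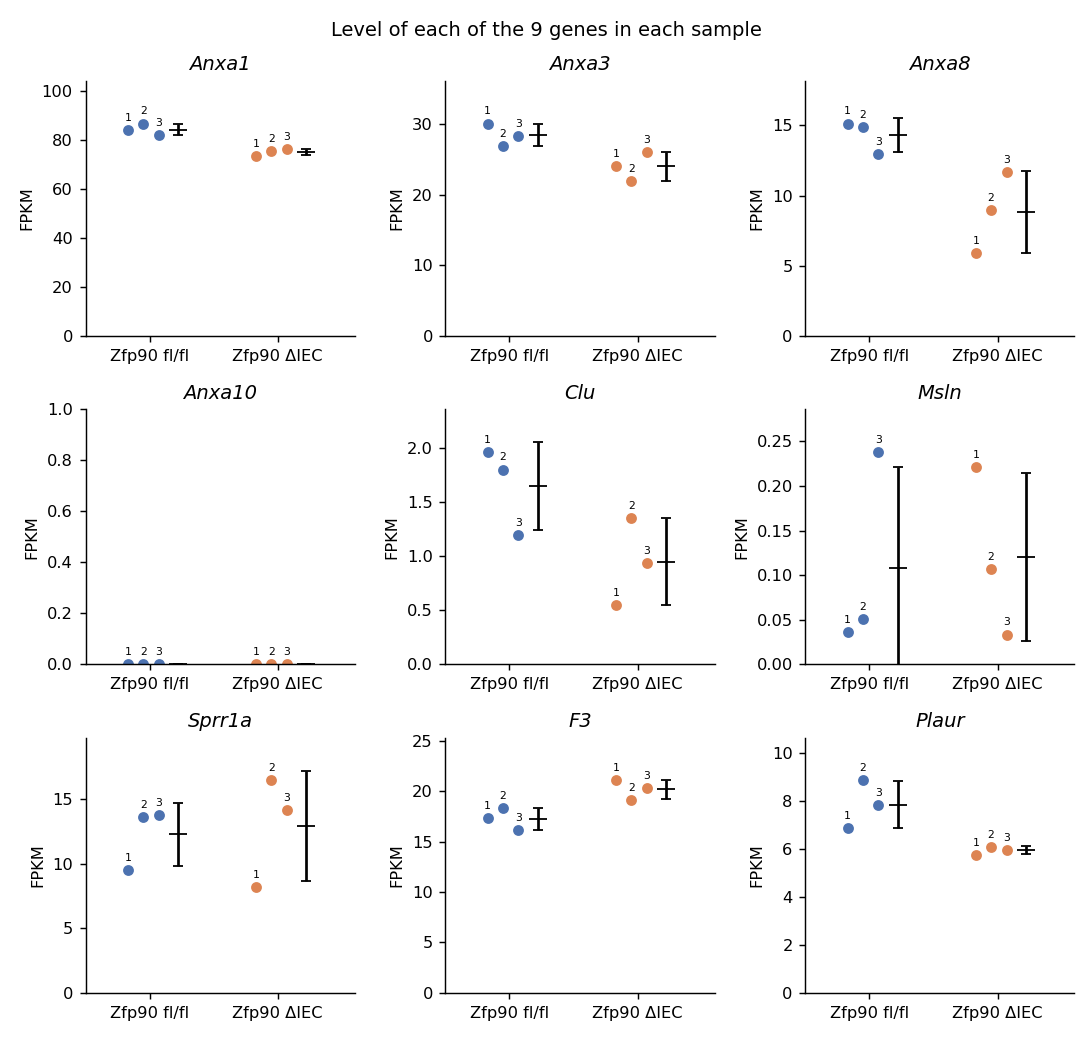
FPKM of each of the 9 genes in each sample (points, numbered by replicate), with the mean and SD of the 3 samples of a genotype beside them; each panel has its own axis from 0. The genotypes lie apart for *Anxa1*, *Anxa3*, *Anxa8*, *F3* and *Plaur*, overlap for *Clu*, *Msln* and *Sprr1a*, and *Anxa10* is at 0 throughout.

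None of the 9 genes differed between genotypes past the threshold. In limma with Benjamini-Hochberg adjustment over all genes tested, 0 of the 7 genes had an adjusted p under 0.05, where 23 of 11564 genes (0.199%) did, and the largest unadjusted p of these 23 was 9.5e-05. The deleted gene *Zfp90* was below the filter. In the test without the filter it was not past the threshold either (adjusted p = 0.123 from limma). The 9 genes were chosen with earlier results of these data known, so the counts below describe them and are no test of the set. At an unadjusted p under 0.05 there were 6 of the 7 genes (limma), against a background of 14.6% of all genes tested. Of these, 5 were lower in *Zfp90*ΔIEC samples (*Anxa1*, *Anxa3*, *Anxa8*, *Clu* and *Plaur*; background 8.09%) and 1 was higher (*F3*; background 6.56%). For 5 genes the values of one genotype all lay outside those of the other, against 21.3% of all genes tested. In 4 of them the *Zfp90*ΔIEC samples were below all *Zfp90*fl/fl samples (background 12.6%) and in 1 they were above (background 8.73%). Under median ratio scaling the background without overlap was 1128 genes lower and 1229 higher, in place of 1457 and 1010, and the counts for the 9 genes stayed at 4 and 1. The median log2 difference of all genes tested was -0.02.

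**Figure D2:**
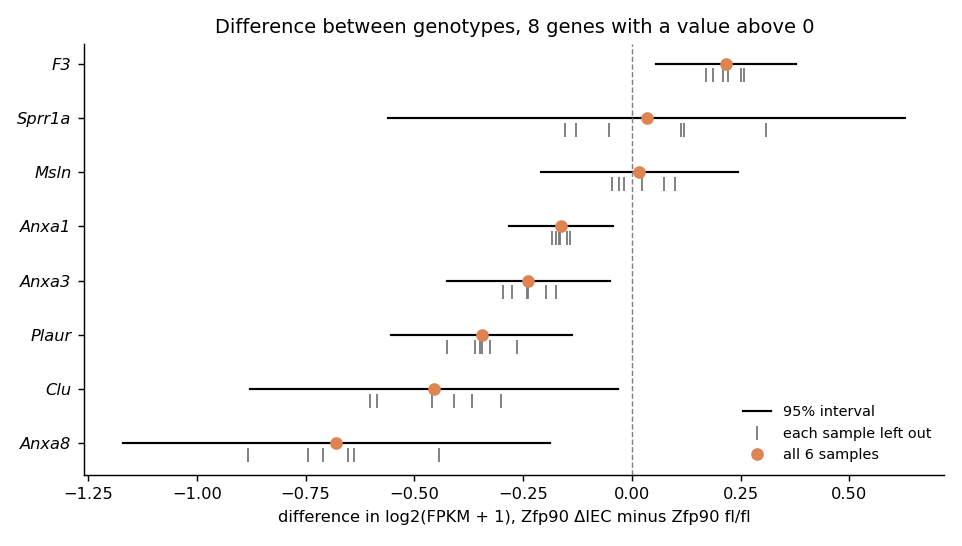
Difference in log2(FPKM + 1) between genotypes (*Zfp90*ΔIEC minus *Zfp90*fl/fl) for the 8 genes with a value above 0, with the 95% interval from limma (line) and the value with each sample left out in turn (ticks). *Anxa8* has the largest difference on this scale and one of the widest intervals, *F3* lies on the other side of 0 from the annexins, and the ticks of *Sprr1a* and *Msln* fall on both sides of 0.

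Annexins bind phospholipid membranes in a calcium-dependent way. *Anxa1* (ENSMUSG00000024659, chr19:20373428-20390944 of GRCm38, minus strand) encodes annexin A1, which dampens inflammation and promotes closure of mucosal wounds through formyl peptide receptors. It was at 84.3, 86.9 and 82.1 FPKM in the *Zfp90*fl/fl samples and at 73.8, 75.6 and 76.4 FPKM in *Zfp90*ΔIEC samples. The genotypes did not overlap, and both were tight, with a coefficient of variation of 2.83% and 1.77% where the median gene tested had 6.88% and 8.31%. The mean was 84.4 ± 2.39 FPKM (SD, n = 3) against 75.3 ± 1.33 FPKM (SD, n = 3), which is -10.9%. The log2 difference was -0.16 (SE 0.0507, 95% interval -0.28 to -0.04, adjusted p = 0.221 from limma). *Anxa1* is also expressed by leukocytes, whose marker sum differed between the genotypes as given above, and their part in the *Anxa1* difference was not tested.

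The receptors of annexin A1 were scarcely detected, *Fpr1* and *Fpr2* below the filter and *Fpr3* at 0 in every sample. The S100 partners of annexins were abundant and overlapped between genotypes. *S100a11*, the partner of annexin A1, was at 172 ± 25.5 FPKM (SD, n = 3) in *Zfp90*fl/fl and 140 ± 36.5 FPKM (SD, n = 3) in *Zfp90*ΔIEC samples (log2 difference -0.31, adjusted p = 0.528 from limma). *S100a10*, the partner of annexin A2, was at 157 ± 17.9 and 179 ± 17.8 FPKM (SD, n = 3 each; log2 difference 0.18, adjusted p = 0.484 from limma). Of these 5 genes 2 passed the filter, and 0 of them were past the threshold or had an unadjusted p under 0.05.

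*Anxa3* (ENSMUSG00000029484, chr5:96793339-96845966 of GRCm38, plus strand) encodes annexin A3, another member of the family. It had 30.1, 26.9 and 28.4 FPKM in the *Zfp90*fl/fl samples and 24.1, 21.9 and 26.1 FPKM in *Zfp90*ΔIEC samples. The groups were separated by less than 1 FPKM, between *Zfp90*ΔIEC sample 3 and *Zfp90*fl/fl sample 2. The mean of 28.5 ± 1.61 FPKM (SD, n = 3) stood against 24.0 ± 2.09 FPKM (SD, n = 3), and the log2 difference was -0.24 (SE 0.0789, 95% interval -0.42 to -0.05, adjusted p = 0.251 from limma). The unspliced gene model *Gm42603* overlaps *Anxa3* on the same strand and had at most 0.368 FPKM. The part of leukocytes in the *Anxa3* difference was not tested.

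*Anxa8* (ENSMUSG00000021950, chr14:34085981-34100571 of GRCm38, plus strand) encodes annexin A8, which is found in stratified epithelia and is among the most specific markers of the fetal-like state in the gut. Its values were 15.1, 14.9 and 12.9 FPKM in the *Zfp90*fl/fl samples and 5.88, 8.97 and 11.7 FPKM in *Zfp90*ΔIEC samples. All 3 *Zfp90*ΔIEC samples lay below the *Zfp90*fl/fl samples, but they were spread from far below to just below, with a coefficient of variation of 32.8% against 8.32%. The mean was 14.3 ± 1.19 FPKM (SD, n = 3) against 8.84 ± 2.90 FPKM (SD, n = 3), or -38.2%. The difference in log2(FPKM + 1) of -0.68 was the largest of the 9 genes on that scale (SE 0.207, 95% interval -1.17 to -0.19, adjusted p = 0.213 from limma). With a pseudocount of 0.1 it was -0.74, and that of *Clu* was larger at -0.79. Without *Zfp90*ΔIEC sample 1 it was -0.44. The antisense genes that overlap *Anxa8* and *Anxa1* had at most 0.0753 FPKM in any sample.

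*Anxa10* (ENSMUSG00000031635, chr8:62057042-62123150 of GRCm38, minus strand) encodes annexin A10, which in adults is a gene of the gastric mucosa. It was listed at 0 in every sample, and at the estimated depth a count of 0 allows a level of up to 0.0946 to 0.104 FPKM (3 fragments, counting error only). Of 9 other gastric markers, *Gkn1*, *Gkn2*, *Tff1* and *Aqp5* were also at 0 throughout, and the list summed to 0.148 to 0.339 FPKM in *Zfp90*fl/fl and 0.301 to 0.584 FPKM in *Zfp90*ΔIEC samples.

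Within the family, the annexins other than *Anxa1*, *Anxa3*, *Anxa8* and *Anxa10* that passed the filter had log2 differences from -0.11 to 0.10. The annexins described above and this list were chosen with earlier results of these data known. The contrast between them is therefore a description and no test of the fetal-like state. Of 8 other annexin genes 7 passed the filter. Of these 7, 0 were past the threshold, 0 had an unadjusted p under 0.05 and 0 were without overlap, with a median log2 difference of 0.05. *Anxa2*, the most abundant, averaged 176 ± 18.6 FPKM (SD, n = 3) in *Zfp90*fl/fl and 168 ± 18.6 FPKM (SD, n = 3) in *Zfp90*ΔIEC samples. The other 7 genes included *Anxa5* with a log2 difference of -0.11 (adjusted p = 0.663 from limma), *Anxa7* with 0.10 (adjusted p = 0.774) and *Anxa4* with 0.08 (adjusted p = 0.605). As a share of the summed FPKM of the family, which was 453 ± 24.7 in *Zfp90*fl/fl and 432 ± 25.6 in *Zfp90*ΔIEC samples (SD, n = 3 each), *Anxa8* made up 3.16 ± 0.289% and 2.03 ± 0.620%. *Anxa1* made up 18.6 ± 0.677% and 17.4 ± 0.820%, and *Anxa2* made up 38.7 ± 2.03% and 38.8 ± 2.03%. These shares were not tested.

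*Clu* (ENSMUSG00000022037, chr14:65968483-65981547 of GRCm38, plus strand) encodes clusterin, a secreted chaperone. It was at 1.97, 1.80 and 1.19 FPKM in the *Zfp90*fl/fl samples and at 0.553, 1.36 and 0.937 FPKM in *Zfp90*ΔIEC samples. The genotypes overlapped, since *Zfp90*ΔIEC sample 2 was above *Zfp90*fl/fl sample 3. The mean of 1.65 ± 0.407 FPKM (SD, n = 3) stood against 0.949 ± 0.401 FPKM (SD, n = 3), a log2 difference of -0.45 on the log2(FPKM + 1) scale, which understates the change of so low a gene (SE 0.179, 95% interval -0.88 to -0.03, adjusted p = 0.316 from limma). With a pseudocount of 0.1 the difference was -0.79. These levels rest on an estimated 26 to 89 fragments per sample, taking the longest transcript. Clusterin is also expressed by stromal and myeloid cells, whose part was not tested. The fibroblast markers summed to 0.454 to 0.952 FPKM in *Zfp90*fl/fl and 0.245 to 0.984 FPKM in *Zfp90*ΔIEC samples.

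*Msln* (ENSMUSG00000063011, chr17:25748613-25754378 of GRCm38, minus strand) encodes mesothelin, a surface protein of mesothelial cells and of some carcinomas. Its values were 0.0368, 0.0504 and 0.238 FPKM in the *Zfp90*fl/fl samples and 0.221, 0.107 and 0.0336 FPKM in *Zfp90*ΔIEC samples. Both genotypes held a high and a low sample, and an estimated 2 to 14 fragments, taking the longest transcript, stand behind each value. Without the filter the log2 difference was 0.02 (95% interval -0.21 to 0.24, adjusted p = 0.955 from limma), so that a difference was not detectable at this depth. Mesothelial markers summed to 0.674 to 0.926 FPKM and 0.783 to 1.33 FPKM. In a list of 6 genes known to act with clusterin or mesothelin, which counts *Msln* itself, 1 passed the filter. This was the lipoprotein receptor *Vldlr* (log2 difference 0.22, adjusted p = 0.531 from limma), and it was not past the threshold.

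*Sprr1a* (ENSMUSG00000050359, chr3:92483952-92485895 of GRCm38, minus strand) encodes a small proline-rich protein of the cornified envelope that is also made by regenerating gut epithelium. It was at 9.47, 13.6 and 13.7 FPKM in the *Zfp90*fl/fl samples and at 8.17, 16.4 and 14.1 FPKM in *Zfp90*ΔIEC samples. Sample 1 was the lowest of each genotype, and the groups overlapped. The mean of 12.3 ± 2.43 FPKM (SD, n = 3) and that of 12.9 ± 4.26 FPKM (SD, n = 3) differed by 0.03 on the log2 scale. The interval was wide (95% interval -0.56 to 0.63, adjusted p = 0.963 from limma), so that this test resolved neither a lower nor a higher level of moderate size. With samples of the same number as a block, the difference was again 0.03, with an SE of 0.0968 in place of 0.251 (adjusted p = 0.880 from limma). Markers of squamous epithelium, which could reach the sample from the anal canal, summed to 1.66 to 2.44 FPKM and 1.66 to 2.35 FPKM, and the defining genes *Krt5*, *Krt1*, *Trp63*, *Ivl* and *Krtdap* were at 0 in every sample, while *Krt14* averaged 0.945 and 0.901 FPKM.

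Other small proline-rich genes ranged from undetected to very abundant. Of 15 genes, 8 were listed at 0 in every sample and 3 passed the filter, 0 of them past the threshold and 1, *Sprr2a3*, lower at an unadjusted p under 0.05. *Sprr2a2* was at 644 ± 44.5 FPKM (SD, n = 3) in *Zfp90*fl/fl and 608 ± 112 FPKM (SD, n = 3) in *Zfp90*ΔIEC samples (log2 difference -0.10, adjusted p = 0.783 from limma). *Sprr2a1* was at 516 ± 93.6 FPKM (SD, n = 3) in *Zfp90*ΔIEC samples, with a log2 difference of -0.09 (adjusted p = 0.801 from limma). *Sprr2a3* was at 65.1 ± 11.7 and 40.8 ± 14.2 FPKM (SD, n = 3 each; log2 difference -0.70, adjusted p = 0.260 from limma). The *Sprr2a* genes are near-identical copies, so that reads can be split between them and each value is uncertain. *Sprr2h*, named after its values were seen, was below the filter with 0.734, 0.734 and 0.835 FPKM in the *Zfp90*fl/fl samples and 0.0931, 0.137 and 0.0953 FPKM in *Zfp90*ΔIEC samples. In the test without the filter it fell by 0.67 in log2(FPKM + 1) (SE 0.0453, adjusted p = 0.0199 from limma), with the same doubt about copies of its family. That scale understates the change of so low a gene, and with a pseudocount of 0.1 the difference was -2.06 (adjusted p = 0.0619 from limma). The adjusted p of *Sprr2h* ran from 0.0153 to 0.291 over the alternatives, and it was past the threshold in 0 of the 6 tests that each left out a sample (0.0596 to 0.146 from limma).

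*F3* (ENSMUSG00000028128, chr3:121723537-121735048 of GRCm38, plus strand) encodes tissue factor, the receptor that starts the extrinsic clotting cascade and a YAP-TEAD target. It was at 17.3, 18.3 and 16.1 FPKM in the *Zfp90*fl/fl samples and at 21.1, 19.2 and 20.4 FPKM in *Zfp90*ΔIEC samples. Every *Zfp90*ΔIEC sample lay above every *Zfp90*fl/fl sample, the nearest pair being 19.2 and 18.3 FPKM. The mean of 17.3 ± 1.10 FPKM (SD, n = 3) stood against 20.2 ± 0.966 FPKM (SD, n = 3), which is 17.0% more, and the log2 difference was 0.22 (SE 0.0677, 95% interval 0.06 to 0.38, adjusted p = 0.226 from limma). *F3* was thus the one gene of the 9 that was higher in *Zfp90*ΔIEC samples without overlap.

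*Plaur* (ENSMUSG00000046223, chr7:24462484-24475968 of GRCm38, plus strand) encodes the urokinase receptor, which focuses plasminogen activation on the surface of migrating cells. It was at 6.87, 8.84 and 7.80 FPKM in the *Zfp90*fl/fl samples and at 5.75, 6.08 and 5.96 FPKM in *Zfp90*ΔIEC samples. The *Zfp90*ΔIEC samples were below all others and close together, with a coefficient of variation of 2.82%. The mean was 7.84 ± 0.986 FPKM (SD, n = 3) against 5.93 ± 0.167 FPKM (SD, n = 3), or -24.3%. The log2 difference of -0.35 (SE 0.0879, 95% interval -0.55 to -0.14) had the smallest adjusted p of the 9 genes, 0.147 from limma. Myeloid cells also express *Plaur*, and the part of the leukocytes, whose markers were lower in *Zfp90*ΔIEC samples, was not tested.

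The proteins that act with these receptors were mostly low in this epithelium. Of 18 genes of coagulation and plasminogen activation, 5 passed the filter. Of these 5, 0 were past the threshold, 0 had an unadjusted p under 0.05 and 2 were lower without overlap, with a median log2 difference of -0.12. The ligand *Plau* (urokinase) had means of 0.275 and 0.153 FPKM, below the filter, and *Plg* (plasminogen) was listed at 0. The protease-activated receptor *F2rl1* was at 48.3 ± 1.78 FPKM (SD, n = 3) in *Zfp90*fl/fl and 43.5 ± 3.15 FPKM (SD, n = 3) in *Zfp90*ΔIEC samples (log2 difference -0.15, adjusted p = 0.389 from limma). *Itgb1*, an integrin that associates with the urokinase receptor, had a log2 difference of -0.12 (adjusted p = 0.396 from limma), and the serpin *Serpinb6a* one of -0.18 (adjusted p = 0.453 from limma).

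The other genes of the repair state did not share 1 direction. Of 22 genes, 15 passed the filter. Of these 15, 0 were past the threshold, and 3 were lower and 2 higher at an unadjusted p under 0.05. Without overlap, 3 of the 15 were lower and 1 higher, and their median log2 difference was 0.01. *Il1rn*, the secreted antagonist of the interleukin receptor, came nearest to the threshold, with 6.79, 6.88 and 6.36 FPKM in *Zfp90*fl/fl and 3.63, 4.72 and 3.83 FPKM in *Zfp90*ΔIEC samples (log2 difference -0.61, SE 0.0902, adjusted p = 0.0664 from limma). Leukocyte markers were also lower in *Zfp90*ΔIEC samples, and the part of leukocytes in the *Il1rn* difference was not tested. The hyaluronan receptor *Cd44* was at 5.77 ± 0.372 and 8.82 ± 1.70 FPKM (SD, n = 3 each; log2 difference 0.52, adjusted p = 0.134 from limma). The matrix protease *Mmp7* was at 1.51 ± 0.356 and 0.793 ± 0.224 FPKM (SD, n = 3 each; log2 difference -0.48, adjusted p = 0.199 from limma). *S100a6*, the most abundant gene of this list, was at 153 ± 5.47 and 155 ± 6.24 FPKM (SD, n = 3 each).

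Genes that YAP and TEAD are known to switch on lay on both sides of 0. Of 22 such genes, *F3* among them, 11 passed the filter. Of these 11, 0 were past the threshold, and 1 was lower and 2 higher at an unadjusted p under 0.05. Without overlap, 2 of the 11 were lower and 2 higher, and their median log2 difference was -0.08. *Ccn1*, a matricellular protein and the most abundant of these, was at 132 ± 12.9 FPKM (SD, n = 3) in *Zfp90*fl/fl and 111 ± 3.94 FPKM (SD, n = 3) in *Zfp90*ΔIEC samples (log2 difference -0.24, adjusted p = 0.240 from limma). *Gadd45a*, a stress-response gene, was at 26.5 ± 3.79 and 38.5 ± 4.68 FPKM (SD, n = 3 each; log2 difference 0.52, adjusted p = 0.134 from limma). The ectonucleotidase *Nt5e* had a log2 difference of -0.36 (adjusted p = 0.363 from limma) and the ferlin *Myof* one of -0.24 (adjusted p = 0.417 from limma), both with overlap, and *Ankrd1* was listed at 0.

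Of 20 genes of the Hippo pathway itself 15 passed the filter. Of these 15, 0 were past the threshold, and 1 was lower at an unadjusted p under 0.05. Without overlap, 2 of the 15 were lower and 1 higher, and their median log2 difference was -0.09. The atypical cadherin *Fat1* had a log2 difference of -0.17 (adjusted p = 0.500 from limma), the kinase co-activator *Mob1a* one of -0.17 (adjusted p = 0.267) and the kinase *Lats1* one of -0.11 (adjusted p = 0.467). Markers of the adult crypt stem cell, the state that the fetal-like program displaces, summed to 40.7 to 47.2 FPKM in *Zfp90*fl/fl and 40.9 to 48.7 FPKM in *Zfp90*ΔIEC samples. Of them *Axin2*, a target of WNT signaling, had a log2 difference of -0.31 (adjusted p = 0.396 from limma), *Lrig1* one of 0.11 (adjusted p = 0.625) and *Znrf3* one of -0.08 (adjusted p = 0.869).

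**Figure D3:**
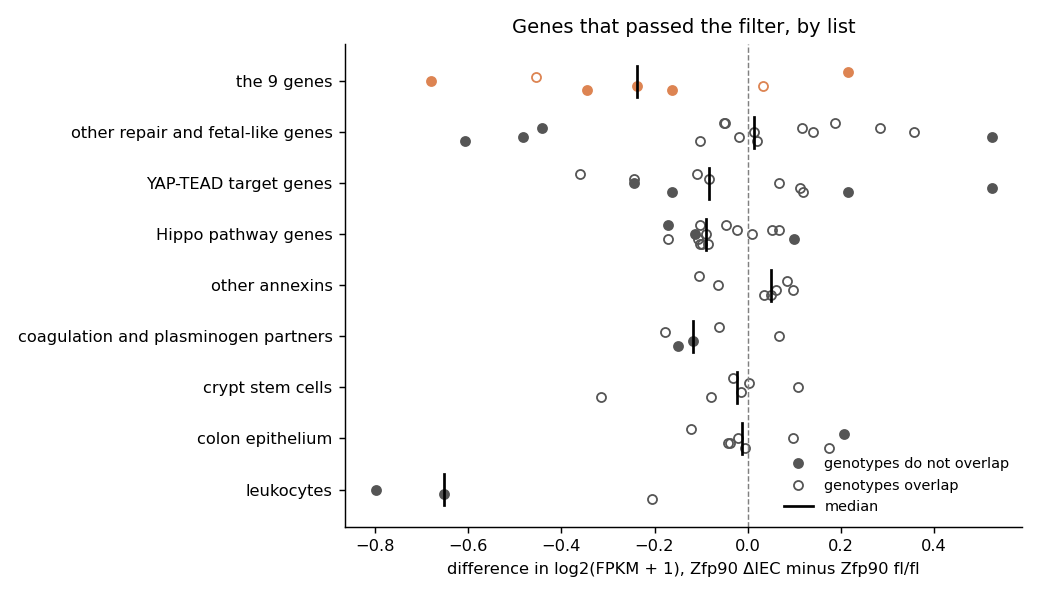
Difference in log2(FPKM + 1) between genotypes for the genes that passed the filter, by list (filled points: samples of the genotypes do not overlap; open points: they overlap; bar: median of the list). Most of the 9 genes lie left of 0 with *F3* to the right, the other annexins lie close to 0, and the other repair genes and YAP-TEAD targets lie on both sides; 7 of the 9 genes passed, and *F3* and *Lats2* are each drawn in 2 lists.

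The genes differed in how they varied over the 6 samples. Pearson's r of log2(FPKM + 1), given as a description because genotype is shared by all pairs, was 0.912 between *Anxa1* and *Plaur*, 0.880 between *Anxa1* and *Anxa8* and 0.839 between *Anxa8* and *Clu*. *F3* had a negative r with each of the other 6 genes that passed the filter, from -0.739 with *Anxa1* to -0.212 with *Sprr1a*. *Sprr1a* followed none of them closely, with r from -0.286 to 0.333.

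The genes most like each of them over the 6 samples were found among all genes tested, again with no test. *Sprr1a* was followed most closely by *Epha2*, an ephrin receptor of epithelial cells (r = 0.9961), which had 13.7, 18.8 and 19.4 FPKM in the *Zfp90*fl/fl samples and 12.8, 21.7 and 19.6 FPKM in *Zfp90*ΔIEC samples. *Anxa8* was followed by *Scel* (r = 0.9918), which encodes sciellin, a protein of the cornified envelope, with 1.79, 1.78 and 1.49 FPKM and 0.860, 1.25 and 1.46 FPKM, and by *Tln2* (r = 0.9894). *Plaur* was followed by *Ilvbl* (r = 0.9995) and by the small GTPase *Rhob* (r = 0.9929).

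*Anxa3* was followed by *Mob1a* (r = 0.9944) and *Camk1d* (r = 0.987), *Anxa1* by *Slc6a9* (r = 0.9903), *Clu* by *Mef2d* (r = 0.9912) and *Ubxn6* (r = 0.9909), and *F3* by *Ap3s2* (r = 0.9856) and the tropomyosin *Tpm4* (r = 0.9842). The second gene for *Sprr1a* was *Trim62* (r = 0.9916). With 6 samples such values are common: between 23 genes for *F3* and 122 genes for *Anxa1* had an r of at least 0.95.

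**Figure D4:**
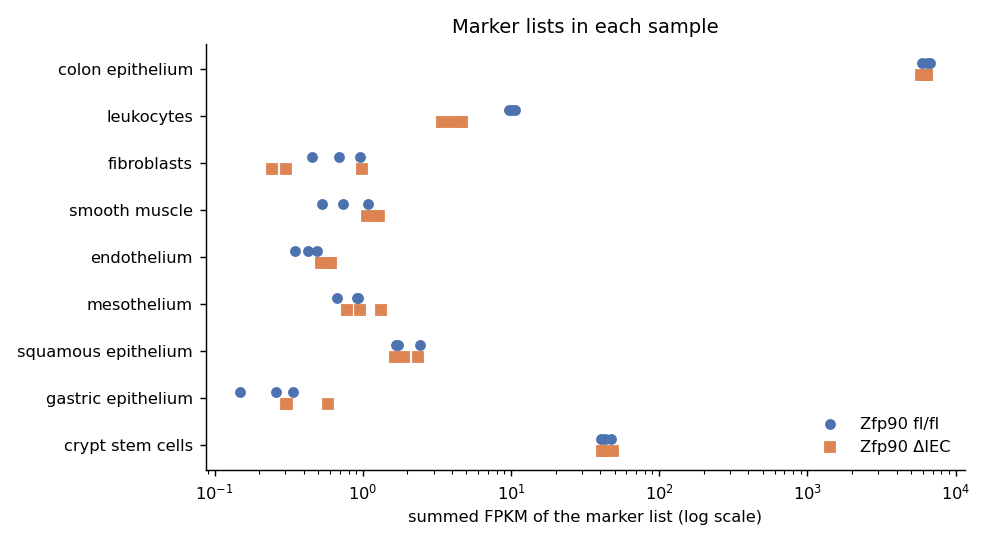
Summed FPKM of each marker list in each sample, on a log axis (circles: *Zfp90*fl/fl; squares: *Zfp90*ΔIEC). The leukocyte sums of the genotypes lie apart, 9.71 to 10.6 against 3.42 to 4.65 FPKM, while those of colon epithelium and crypt stem cells overlap. The low endothelial sums also lie apart, in the other direction, 0.347 to 0.488 against 0.518 to 0.611 FPKM.

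Among the markers of colon epithelium the keratin *Krt18* had a log2 difference of 0.21 (adjusted p = 0.240 from limma), *Krt20* one of 0.17 (adjusted p = 0.684) and *Krt19* one of -0.12 (adjusted p = 0.484). Marker lists of other cells that the isolation could carry over were low. Smooth muscle markers summed to 0.532 to 1.08 FPKM in *Zfp90*fl/fl and 1.07 to 1.29 FPKM in *Zfp90*ΔIEC samples, and endothelial markers to 0.347 to 0.488 and 0.518 to 0.611 FPKM, with *Emcn* at 0. The endothelial sums did not overlap, with 1 of the 6 genes higher and 1 lower without overlap in *Zfp90*ΔIEC samples. Among leukocyte genes that passed the filter, *Lyz2* had a log2 difference of -0.80 (adjusted p = 0.0782 from limma), *Laptm5* one of -0.65 (adjusted p = 0.0664) and *Cd68* one of -0.21 (adjusted p = 0.431). Below the filter, the myeloid integrin *Itgam* was at 0.943, 1.01 and 0.928 FPKM in *Zfp90*fl/fl and at 0.151, 0.132 and 0.180 FPKM in *Zfp90*ΔIEC samples. In the test without the filter *Itgam* fell by 0.76 in log2(FPKM + 1) (SE 0.0481, adjusted p = 0.0199 from limma), a scale that understates the change of so low a gene. With a pseudocount of 0.1 the difference of *Itgam* was -2.06 (adjusted p = 0.0537 from limma). Its adjusted p ran from 0.00939 to 0.291 over the alternatives, and it was past the threshold in 0 of the 6 tests that each left out a sample (0.0648 to 0.146 from limma). How much of the signal of *Anxa1*, *Plaur*, *Clu* or any other gene described here leukocytes supply was not tested.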

How the data were processed

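RNA-seq of colon epithelium was analysed in 6 samples, 3 per genotype. The authors deposited an FPKM per gene and sample, from strand-specific paired-end libraries. The submitters' processing notes name FastQC, STAR 2.5, Cuffnorm, DESeq 1.22.1 and the build mm9, whereas the study's methods name other tools and a human genome. The files hold mouse Ensembl identifiers, and the mapping build is thus not settled. Symbols and coordinates come from a GRCm38 annotation matched by identifier (52403 of 52550 matched). Whether counting used strand is not given in the sources used here.

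Genes reaching 1 FPKM in 3 or more samples (11564) were compared between genotypes on the scale of log2(FPKM + 1) with limma 3.58.1 (intensity trend, Benjamini-Hochberg adjustment, threshold 0.05) in R 4.3.3. Statistics of genes below the filter come from the same test without it. Intervals are 95%. Depth was estimated from steps between low values, assuming 200-base fragments. Fragments behind a level were estimated with the longest transcript of the gene, and the limit of a count of 0 with the shortest. Each choice gives the higher figure. Between 57.8% and 61.8% of the values examined lay within 10% of a whole step. Tables were made with pandas 2.3.3 and numpy 2.4.6 in Python 3.11.15 and figures with matplotlib 3.10.9. The test was tested on simulated data.

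The members and lists were chosen with earlier results of these data known. All 9 members are named. Of each other list, genes past the threshold are named, otherwise up to 3 that passed the filter with the largest absolute difference, and the most abundant of some lists. *Sprr2h* and *Itgam*, below the filter, were added after their values were seen. For members averaging 1 FPKM or more the 2 genes with the highest r are named. The result of 1 gene named by this rule is not reported here. Alternatives were a pseudocount of 0.1, no filter, a filter at 0.1 FPKM, quantile normalization, median ratio scaling, no intensity trend, a replicate block and leaving out each sample.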

Additional observations from a re-analysis of the deposited data

How the results depend on the processing

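Under all alternatives run, 0 of the 9 genes were past the threshold in limma, and *Anxa1*, *Anxa3*, *Anxa8*, *Clu*, *F3* and *Plaur* kept their direction. The signs of 2 genes near 0 turned when a sample was left out: the difference of *Sprr1a* ran from -0.15 to 0.31 and that of *Msln* from -0.0466 to 0.0992. Genes past the threshold were counted anew in each alternative and need not be among the 23 of the main test. They numbered 13 with a pseudocount of 0.1, 15 without the filter and 31 with a filter at 0.1 FPKM. With median ratio scaling they numbered 24, and with a sample left out 10 to 21, 10 without *Zfp90*fl/fl sample 2. Genes without overlap numbered 4135 without the filter, where more genes were tested, and 3507 to 4184 with a sample left out, 4184 without *Zfp90*ΔIEC sample 1. Members with an unadjusted p under 0.05 (limma) numbered between 4 and 6 of the 7 or 8 tested over the alternatives. The background moved as well. It was 1295 of 11564 genes without *Zfp90*fl/fl sample 2 and 1875 of 11564 with the replicate block. With the filter at 0.1 FPKM it was 2300 of 17075 genes, and without the filter 2768 of 27805. Deviations from the genotype's mean in samples of the same number correlated with 0.194, 0.110 and 0.0782 across genes, not all over 0.1, so that the numbers were not taken as pairs. With the replicate block, 47 genes passed, none of them among the 9, and the cause was not tested. Quantile normalization and median ratio scaling moved the median of all genes to -0.01 and -0.003. Depth limits *Clu*, *Msln* and *Anxa10*, and with 3 samples per genotype the intervals of *Anxa8* and *Sprr1a* are wide in the main test.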

Other observations

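Several abundant genes of the repair state varied more between samples than between genotypes. These were picked after their values were seen and were not tested further. *Ly6a*, which encodes the surface antigen Sca-1 of the fetal-like colon epithelium, was at 48.3, 35.6 and 75.8 FPKM in the *Zfp90*fl/fl samples and at 36.4, 34.0 and 84.4 FPKM in *Zfp90*ΔIEC samples, so that sample 3 was the highest in each genotype. *Emp1*, an epithelial membrane protein, was at 96.4, 173 and 118 FPKM and at 106, 220 and 153 FPKM, so that sample 2 was the highest and sample 1 the lowest in each. Their log2 differences were -0.10 (SE 0.396) and 0.29 (SE 0.299).

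Among epithelial ligands of the repair response, *Areg*, which encodes amphiregulin, was at 146 ± 17.7 FPKM (SD, n = 3) in *Zfp90*fl/fl and 148 ± 13.5 FPKM (SD, n = 3) in *Zfp90*ΔIEC samples. The tight junction gene *Cldn4* was at 26.0 ± 3.63 and 33.6 ± 5.20 FPKM (SD, n = 3 each; log2 difference 0.36, adjusted p = 0.306 from limma), with overlap.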
